A study of Homo sapiens with 16 samples.

Results

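The 7 pseudogenes MTND1P23, MTND2P28, MTCO1P12, MTCO2P12, MTATP8P1, MTATP6P1 and MTCO3P12 lie side by side in a single insert of mitochondrial DNA in the nuclear genome. The pseudogenes span chr1:629062-634922 (hg38, plus strand), and the insert, of 5844 bp, starts 19 bp after the first base of MTND1P23 and ends 2 bp after the last base of MTCO3P12. The members were the listed peaks that overlap this insert by at least 1 bp. There were 11 such peaks among the 40118 peaks of 9 lists, and 8 of the 9 lists held at least 1. The insert was chosen by the fold enrichment and rank of its peaks and by their difference between knockdown and control, so its fold enrichment, its rank and the difference between knockdown and control are given as descriptions without a test.

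The study mapped DNA bound by the antibody 1H6, which recognises G-quadruplexes (G4s), in HEK293T cells, a human embryonic kidney cell line. Of its 16 samples, 9 were immunoprecipitates with a list of broad peaks and 7 were inputs with no peak list. G4 DNA-IPnat and G4 DNA-IPdenat were made from purified genomic DNA of cells without any shRNA, either native or heat-denatured and snap-chilled, and shared an input. G4-ChIP was the conventional assay on chromatin of the same kind of cells. The other 6 lists came from AbC G4-ChIP, in which permeabilised cells were given the antibody before the final fixation. CT was a stable HEK293T line carrying a non-targeting shRNA, and KD was a stable line carrying an shRNA against CGGBP1, a protein that binds CGG repeats. CTnuc and KDnuc received no added DNA, were read on an Ion Torrent S5 and shared a pooled input. In CTut and KDut, control and carrier plasmid DNA was incubated with the antibody and added to the lysate. In CTtr and KDtr the plasmids were transfected into the cells beforehand. These 4 libraries were read on a MinION, each with its own input. G4-ChIP, G4 DNA-IPnat and G4 DNA-IPdenat were read on a MinION as well. Each list stands for a single sequenced library, which the authors pooled from 4 replicates, so no list has a replicate error of its own. Read totals are not held in the peak lists, so the depth behind each peak is not given here.

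A G4 is a 4-stranded fold of DNA in which runs of guanines stack on each other, and a run of cytosines on one strand is a run of guanines on the other. The mitochondrial genome has a heavy strand rich in guanine and a light strand rich in cytosine. Pieces of it have been copied into the nuclear chromosomes during evolution, and such a nuclear copy keeps the genes as pseudogenes, with no known mitochondrial function. A cell holds many more molecules of mitochondrial DNA than of any single nuclear copy.

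The insert aligned to bases 3911 to 9755 of the 16569 bp mitochondrial chromosome, or 35.3% of it, with 98.5% identity. Over 5846 aligned columns there were 83 mismatches and 3 gap bases, and 78 of the mismatches were transitions and 5 were transversions. The mitochondrial chromosome was not among the sequences to which the authors aligned the reads. Reads of mitochondrial DNA and reads of the insert can therefore not be told apart in these lists, and every value below is a value of both. The insert had no difference from mitochondrial DNA in 23.6% of its 100 bp windows, in 3.33% of its 200 bp windows and in none of its 4845 windows of 1000 bp, where the median number of differences was 15. The longest stretch without a difference had 279 bp, at chr1:629627-629905, of which all but the first bases lie in MTND2P28.

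The stretch covered by the most lists is shown because all 8 lists with a peak share it. It lies inside MTATP6P1, and is given with its mitochondrial counterpart in MT-ATP6 (plus strands, hg38), with the bases that differ between them in capitals.
chr1:633974-634199: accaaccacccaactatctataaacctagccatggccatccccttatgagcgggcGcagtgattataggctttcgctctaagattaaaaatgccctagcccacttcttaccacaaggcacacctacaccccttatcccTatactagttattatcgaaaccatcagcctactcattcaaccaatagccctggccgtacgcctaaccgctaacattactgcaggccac
chrM:8805-9030: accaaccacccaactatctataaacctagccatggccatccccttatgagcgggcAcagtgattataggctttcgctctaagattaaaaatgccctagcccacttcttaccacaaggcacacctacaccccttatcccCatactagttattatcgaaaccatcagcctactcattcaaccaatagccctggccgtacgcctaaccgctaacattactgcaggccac
These 226 bases differed from mitochondrial DNA at 2 positions and held 1 GGG and 9 CCC triplets on the plus strand.

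The highest peaks of CTnuc and KDnuc lay over different pseudogenes. For each of them the 120 bases with the most GGG and CCC triplets are shown, with these triplets in capitals. The CTnuc stretch runs from mitochondrial tRNA genes into the start of MTND2P28, and the KDnuc stretch lies inside MTND2P28.
chr1:629541-629660, CTnuc: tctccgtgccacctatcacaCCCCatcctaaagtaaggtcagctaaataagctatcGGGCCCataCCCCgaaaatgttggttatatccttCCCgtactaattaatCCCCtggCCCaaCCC
chr1:630357-630476, KDnuc: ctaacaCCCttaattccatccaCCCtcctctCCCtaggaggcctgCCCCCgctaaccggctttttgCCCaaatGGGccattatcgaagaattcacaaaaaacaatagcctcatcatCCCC
The first held 1 GGG and 10 CCC triplets and 1 difference from mitochondrial DNA, and the second held 1 GGG and 9 CCC triplets and no difference.

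By GENCODE version 44 each of the 7 members is an unprocessed pseudogene of 1 exon on the plus strand. MTND1P23 (chr1:629062-629433) and MTND2P28 (chr1:629640-630683) derive from genes of subunits of respiratory complex I. MTCO1P12 (chr1:631074-632616), MTCO2P12 (chr1:632757-633438) and MTCO3P12 (chr1:634376-634922) derive from the genes of the mitochondrially encoded core subunits of cytochrome c oxidase. MTATP8P1 (chr1:633535-633741) and MTATP6P1 (chr1:633696-634376) derive from genes of ATP synthase subunits, and they overlap each other as their parents do. MT-ND2, MT-CO1, MT-ATP8 and MT-ATP6 are represented over their whole length, MT-CO2 over 99.7%, MT-CO3 over 70.0% and MT-ND1 over 36.8%. The insert also holds 11 complete mitochondrial tRNA genes between them. On the opposite strand the transcribed processed pseudogene ENSG00000230021 (chr1:586071-827796) spans the whole insert. It has 2 exonic stretches there, chr1:631131-631204 in MTCO1P12 and chr1:633044-633129 in MTCO2P12, so that the rest of the insert is intronic to it. A miRNA gene, ENSG00000278791 (chr1:632325-632413, minus strand), lies in MTCO1P12. Apart from these, the nearest annotated genes were the lncRNA gene ENSG00000235146, 34313 bp before the insert, and the processed pseudogene WBP1LP6, 39918 bp after it.

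The 4 lists CTut, KDut, CTtr and KDtr each covered nearly the whole insert with 1 peak. The CTut peak ran over chr1:628824-634761, starting 257 bp before the insert and ending 163 bp short of its end. The KDut peak, chr1:628741-635059, overran the insert by 340 bp on the left and by 135 bp on the right. The CTtr peak, chr1:628936-634916, started 145 bp before the insert and ended 8 bp short of its end, and the KDtr peak, chr1:628972-634926, started 109 bp before it and ended 2 bp past it. The starts of the 4 peaks thus fell within 231 bp and their ends within 298 bp, and they shared 5790 bp of the 6319 bp that any of them covered, or 91.6%. At 5938 to 6319 bp these peaks were longer than the median peaks of their lists, which had 1643 to 1959 bp. All 7 pseudogenes were touched in these 4 lists, and 6 of them over their whole length. MTCO3P12, at the right end, was covered over 70.6% in CTut, 98.9% in CTtr and its whole length in KDut and KDtr.

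The Ion Torrent lists held 2 short peaks each. CTnuc had a peak at chr1:629041-629665 (625 bp), over all of MTND1P23, 3 tRNA genes and the first 26 bp of MTND2P28, and another at chr1:633974-634973 (1000 bp), over 59.2% of MTATP6P1 and all of MTCO3P12. KDnuc had a peak at chr1:630264-630985 (722 bp), over 420 bp of MTND2P28 and the genes MT-TW, MT-TA and MT-TN that follow it, and another at chr1:633936-634906 (971 bp), over 64.8% of MTATP6P1 and 97.1% of MTCO3P12. The right-hand peaks of both lists overlapped each other, whereas the left-hand peaks did not. No listed peak of CTnuc or KDnuc touched MTCO1P12, MTCO2P12 or MTATP8P1. These gaps are not a measured absence of enrichment. The names of the peaks are numbered in order of position, and in CTnuc and KDnuc 64.7% and 65.2% of the numbers are not in the list, against 0 in the other 7 lists. The number between the 2 peaks was among those in both lists, 4 in CTnuc and 9 in KDnuc.

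**Figure D1:**
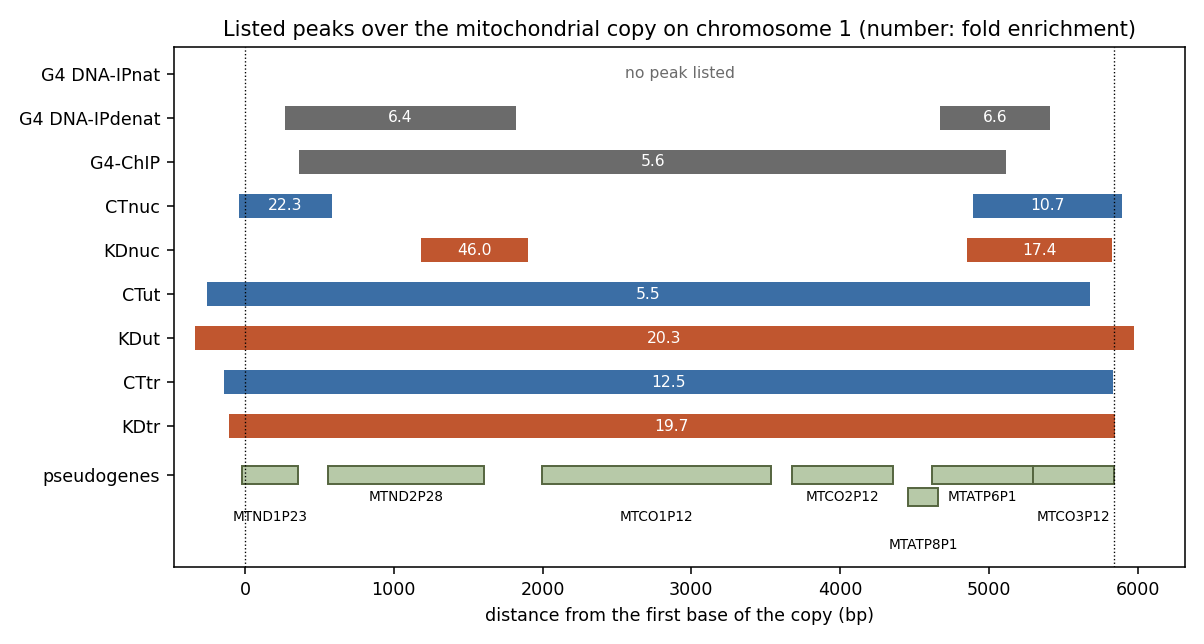
Listed peaks of the 9 lists (bars) along the insert, as the distance in bp from its first base, with the fold enrichment of each peak written in its bar; dotted lines mark the ends of the insert, blue is CT, orange is KD and grey the other lists, and the pseudogenes are drawn below. The KDut and KDtr peaks span the whole insert, the CTut and CTtr peaks end 163 and 8 bp short of its right end, and CTnuc and KDnuc share only the peak at its right end.

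The assays without shRNA differed in what they covered. G4-ChIP had 1 peak of 4756 bp at chr1:629444-634199, which held MTND2P28, MTCO1P12, MTCO2P12 and MTATP8P1 whole, 74.0% of MTATP6P1, and no base of MTND1P23 or MTCO3P12. G4 DNA-IPdenat had 2 peaks. The first, chr1:629346-630901 (1556 bp), held MTND2P28 whole and 23.7% of MTND1P23, and the second, chr1:633752-634493 (742 bp), held 91.8% of MTATP6P1 and 21.6% of MTCO3P12. G4 DNA-IPnat had no peak on the insert, and its first peak on chromosome 1 lay 154698 bp further on. That list is the shortest, with 226 peaks, and its lowest listed fold was 4.47.

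Counted over the 9 lists, MTND2P28 and MTATP6P1 were touched in 8, MTCO3P12 in 7, MTND1P23 in 6, and MTCO1P12, MTCO2P12 and MTATP8P1 in 5. MTATP6P1 was covered over at least 50% of its length in all 8 lists that touched it, and MTND2P28 in 6. Over the insert, 54.3% of the bases were covered by 5 lists, 21.1% by 6, 20.4% by 7 and 3.87% by 8. The least covered bases were the last of the insert, with 10 bp in 4 lists and the final 8 bp in 3. The bases covered in each list came to 5844 in KDut and KDtr, 5836 in CTtr, 5681 in CTut, 4756 in G4-ChIP, 2298 in G4 DNA-IPdenat, 1693 in KDnuc and 1536 in CTnuc.

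The level of enrichment was read from the highest peak on the insert, as the fold enrichment and the -log10 q that the peak caller gave it. For the AbC lists and G4 DNA-IPdenat the authors called peaks without a local background, so that these folds are over a genome-wide level and take no account of the number of input reads at the insert. In CTnuc the highest fold was 22.3 (-log10 q 55.9), on the MTND1P23 peak, and the peak at MTATP6P1 and MTCO3P12 had 10.7 (18.5). In KDnuc it was 46.0 (142), on the MTND2P28 peak, and 17.4 (39.9) on the peak at MTATP6P1 and MTCO3P12. Averaged over both peaks with the shared bases as weights, the fold was 15.1 in CTnuc and 29.6 in KDnuc. The single peaks had a fold of 5.53 (-log10 q 12.7) in CTut, 20.3 (95.8) in KDut, 12.5 (42.9) in CTtr and 19.7 (81.1) in KDtr. G4-ChIP gave 5.62 (4.87), and the 2 peaks of G4 DNA-IPdenat gave 6.45 (5.88) and 6.63 (6.33). By the printed folds KDnuc was thus the highest, followed by CTnuc, KDut, KDtr and CTtr. CTut, G4-ChIP and G4 DNA-IPdenat lay between 5.53 and 6.63. G4-ChIP was called with another bandwidth, and whether a local background was used for it is not clear. Its fold may therefore not be on the same scale as the others.

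Within its own list the insert ranked 2nd by fold among the 7753 peaks of KDnuc, 3rd among 2927 in KDut and 2nd among 2389 in KDtr. In the CT lists it ranked 19th of 3796 in CTnuc, 5th of 2367 in CTtr and 833rd of 3496 in CTut. It ranked 122nd of 1455 in G4-ChIP and 1429th of 15709 in G4 DNA-IPdenat. The ranks in CTnuc and KDnuc are among the listed peaks, and how the insert ranked among all the numbered peaks, 10757 and 22266, is not known. Among listed peaks the insert was in the highest 0.501% in 5 of the 6 AbC lists, and in the highest 23.8% in CTut. Its fold reached 90.2%, 93.7% and 98.0% of the highest in the list in KDnuc, KDut and KDtr, against 49.9%, 20.6% and 68.2% in CTnuc, CTut and CTtr. The highest fold of any peak was 26.8 in the CTut list, against 21.6, 18.4 and 20.1 in KDut, CTtr and KDtr. Why the insert ranked lower in CTut was not tested. By -log10 q the ranks were 2, 3 and 2 in KDnuc, KDut and KDtr, and 22, 835 and 5 in CTnuc, CTut and CTtr.

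**Figure D2:**
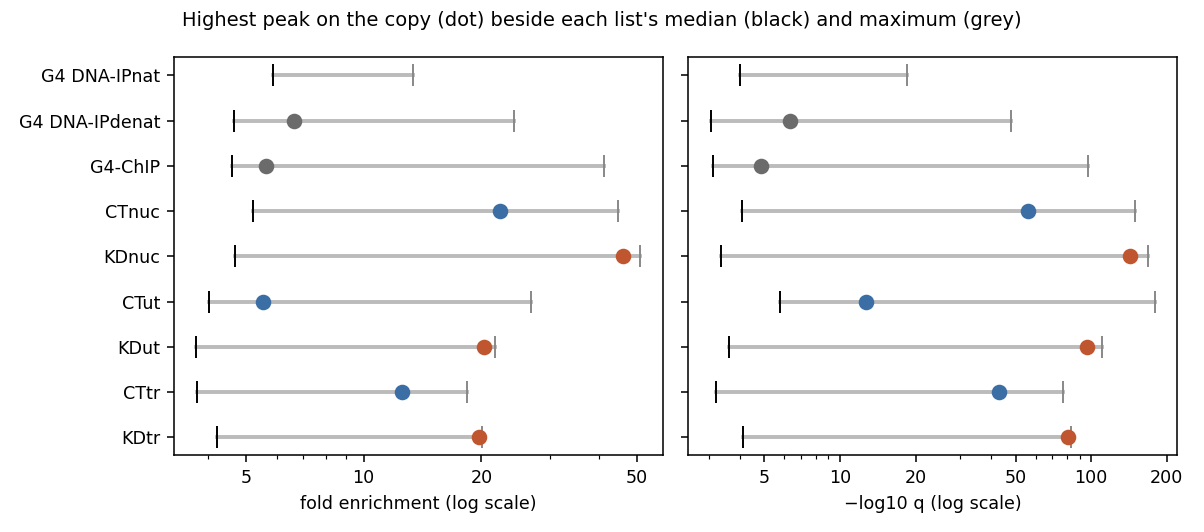
Fold enrichment (left) and -log10 q (right), both on log scales, of the highest peak on the insert in each list (dot), beside the median (black tick) and the maximum (grey tick) of all peaks in that list. The KD dots, at folds of 19.7 to 46.0, sit close to the maximum of their lists, and the CTut dot at 5.53 sits close to its median of 4.01.

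Knockdown was compared with control within each kind of handling. The highest fold was 22.3 in CTnuc and 46.0 in KDnuc, a ratio of 2.07 or 1.05 on the log2 scale. This ratio rests on the listed peaks, and a peak number between the 2 peaks on the insert is absent from each of these lists. It was 5.53 in CTut and 20.3 in KDut, a ratio of 3.67 or 1.87 on the log2 scale. It was 12.5 in CTtr and 19.7 in KDtr, a ratio of 1.57 or 0.65 on the log2 scale. KD was higher in 3 of 3 pairs, with a mean log2 ratio of 1.19 ± 0.62 (SD, n = 3 pairs). The folds themselves overlapped between the groups, at 13.4 ± 8.4 (SD, n = 3) for CT and 28.7 ± 15.1 (SD, n = 3) for KD, because CTnuc lay above KDut and KDtr. The -log10 q was 12.7, 42.9 and 55.9 in CTut, CTtr and CTnuc, and 81.1, 95.8 and 142 in KDtr, KDut and KDnuc. How many other regions have their -log10 q ordered in this way was not computed. Since this contrast was used in choosing the insert, nothing is read from that order. A two-sided exact sign-flip test of 3 pairs cannot give a p below 0.25, and none was run. The platform changed together with the handling, so that these cannot be told apart when the nuc pair is set beside the others.

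In the nuc pair the highest peaks lie over different pseudogenes, so the peaks that overlap each other were compared as well, a choice made after the data were seen. At MTATP6P1 and MTCO3P12 the fold was 10.7 in CTnuc and 17.4 in KDnuc, a ratio of 1.62 or 0.69 on the log2 scale. With this value in place of the first, the mean log2 ratio over the pairs was 1.07 ± 0.69 (SD, n = 3 pairs). Coverage of the insert was 1536 bp in CTnuc and 1693 bp in KDnuc. It was 5681 and 5844 bp in the ut pair, and 5836 and 5844 bp in the tr pair. Coverage cannot pass the 5844 bp of the insert, which CTut and CTtr already nearly reached. In the nuc pair it rests on listed peaks only. It is therefore not set against the change in fold.

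The same ratio was computed for every region with a peak in both lists of a pair, the insert included, after merging peaks that overlap by at least 1 bp. In the nuc pair 1.09% of the 2484 shared regions had a fold at least 1.5 times higher in KD. In the ut pair it was 0.887% of 1579, and in the tr pair 2.96% of 1417. The insert was past this mark in all 3 pairs, and since the contrast was used in choosing it, nothing is read from that. The median log2 ratio of the shared regions was -0.02 in the nuc pair, -0.10 in the ut pair and 0.18 in the tr pair, so that the log2 ratio of the insert was 1.07, 1.97 and 0.48 above the median of its pair. Regions with a larger log2 ratio than the insert numbered 6 in the nuc pair (16 when its overlapping peaks are used), 1 in the ut pair and 28 in the tr pair. In the tr pair, where 85.4% of the shared regions were higher in KD, the ratio at the insert stood out least.

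**Figure D3:**
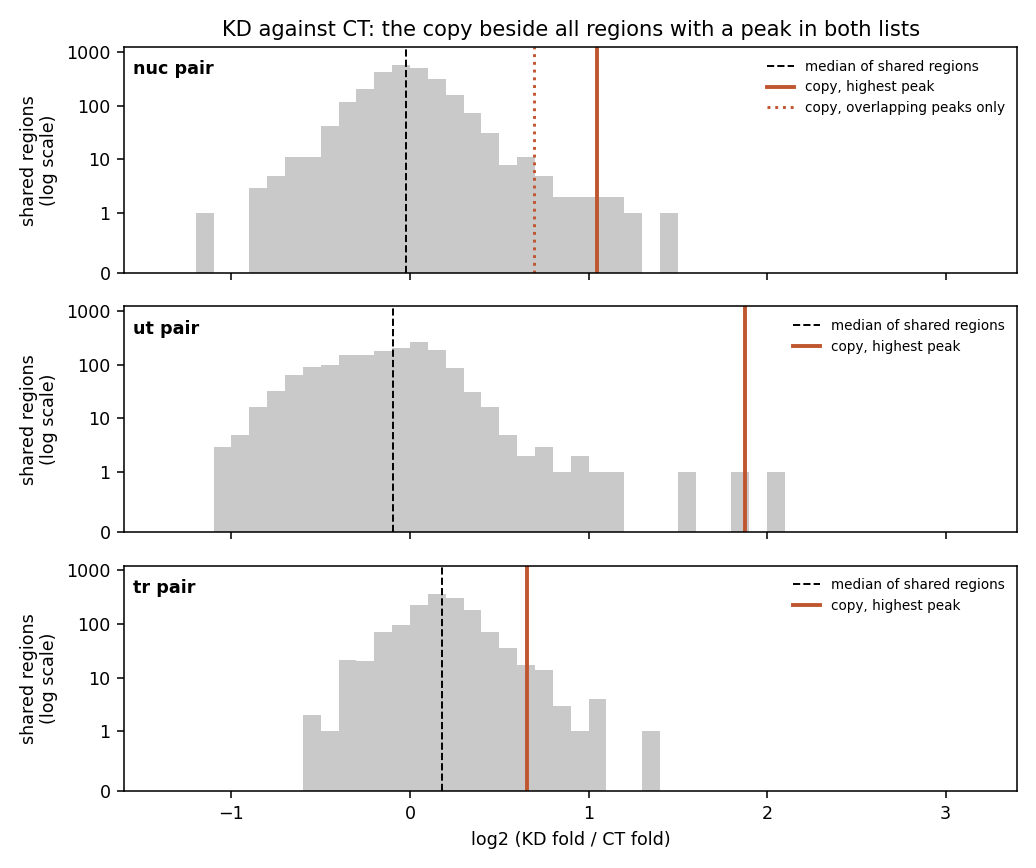
Number of regions with a peak in both CT and KD (log scale) by log2 ratio of KD fold to CT fold, for the nuc, ut and tr pairs from top to bottom; the dashed line is the median of the regions, the solid orange line the highest peaks on the insert, and the dotted line its overlapping peaks in the nuc pair. The insert lies at 1.05, 1.87 and 0.65, to the right of the median in each panel.

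Apart from the insert, 533 merged regions of the 9 lists had a peak in all 6 AbC lists. In 117 of these, or 22.0%, the fold was higher in KD than in CT in 3 of 3 pairs. Their mean log2 ratio over the 3 pairs had a median of 0.03 and a maximum of 0.78, against 1.19 at the insert and 1.07 when only its overlapping peaks are used. Since the contrast was used in choosing the insert, nothing is read from its place above them. Of the 533 regions, 118 had peaks in the same 8 lists as the insert and none in G4 DNA-IPnat. The 5 of them whose folds were most like those of the insert, by the root mean square difference of log2 fold over the 8 lists, lie in the centromeric parts of chromosomes 5, 1 and 4. The nearest, chr5:49181748-49186183, still differed by 1.05 on the log2 scale. Its fold was 13.6 in CTnuc, 14.9 in KDnuc, 9.08 in CTut, 7.71 in KDut, 7.30 in CTtr and 7.26 in KDtr, so that KD was higher in the nuc pair alone. The other 4, chr1:124375818-124379524, chr5:49401870-49412638, chr1:123523977-123531734 and chr4:51177687-51184261, differed by 1.14 to 1.30.

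The distances from the insert to the next listed peaks on chromosome 1 were long. Those of CTnuc and KDnuc are between listed peaks only, since most peak numbers are absent from both lists, and the peaks of CTnuc on the insert are numbered 3 and 5 with no listed peak before them. On the left, G4-ChIP, CTtr and KDtr had their next peak near the start of the chromosome, 618612 to 618642 bp away, KDnuc had it 362223 bp away and KDut 444492 bp away. The other 4 had no listed peak to the left. On the right the distance to the next peak was 45949 bp in G4 DNA-IPdenat, 54949 bp in KDut and 101830 to 103132 bp in KDnuc, CTut, CTtr and KDtr. It was 15924934 bp in CTnuc and 32191787 bp in G4-ChIP. These right-hand neighbours had folds between 3.29 and 4.97, below the highest peak on the insert in each of the 8 lists that had one.

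On the plus strand the insert had 24 GGG and 215 CCC triplets, so that most of its guanine runs are on the minus strand. It had 771 guanines and 1817 cytosines, close to the imbalance of the whole mitochondrial chromosome (2169 and 5181). CCC triplets outnumbered GGG triplets in each of the 7 pseudogenes. MTATP8P1, with no GGG and 13 CCC in 207 bp, had 62.8 triplets per kb, MTCO3P12 had 56.7, MTND1P23 48.2, MTCO2P12 39.6, MTND2P28 38.3, MTCO1P12 33.1 and MTATP6P1 32.3. The number of lists that touch a member rests on listed peaks, and CTnuc and KDnuc lack most peak numbers. Whether triplet density goes with that number was not tested. The whole insert had 40.9 triplets per kb, or 239 in all, which was more than in 85.8% of the 39374 windows of the same length on chromosome 1 (median 141). The 11 peaks on the insert had 36.4 to 51.2 triplets per kb, more than 92.9% to 99.2% of the peaks of their lists, whose medians ran from 10.7 to 17.7 per kb. The GC content of these peaks, at 42.1% to 46.9%, was above that of 82.8% to 97.6% of the peaks of their lists.

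The canonical G4 signature of at least 4 runs of GGG with loops of 1 to 7 bases, on either strand, was found once in the insert, with its guanines on the minus strand. It is shown on the plus strand with the runs of cytosine in capitals, and it was the same in the insert and in mitochondrial DNA.
chr1:633421-633464: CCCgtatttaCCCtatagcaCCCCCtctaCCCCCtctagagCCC
chrM:8252-8295: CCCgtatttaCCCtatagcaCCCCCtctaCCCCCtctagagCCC
These 44 bases start in the last part of MTCO2P12 and end at the tRNA gene MT-TK. They lie in the peaks of G4-ChIP, CTut, KDut, CTtr and KDtr and outside the listed peaks of CTnuc, KDnuc and G4 DNA-IPdenat. The signature was present in 40.6% of the chromosome 1 windows of the same length, and in 4.97% to 14.2% of the peaks of the lists, most of which are shorter than the insert. Allowing loops of up to 12 bases gave 5 matches, in MTND2P28, MTCO2P12 and MTCO3P12, and taking runs of at least 2 guanines gave 33. The differences from mitochondrial DNA were spread over all members, from 3 in MTND1P23 to 21 in MTCO1P12, and identity ran from 97.6% in MTATP8P1 to 99.2% in MTND1P23.

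**Figure D4:**
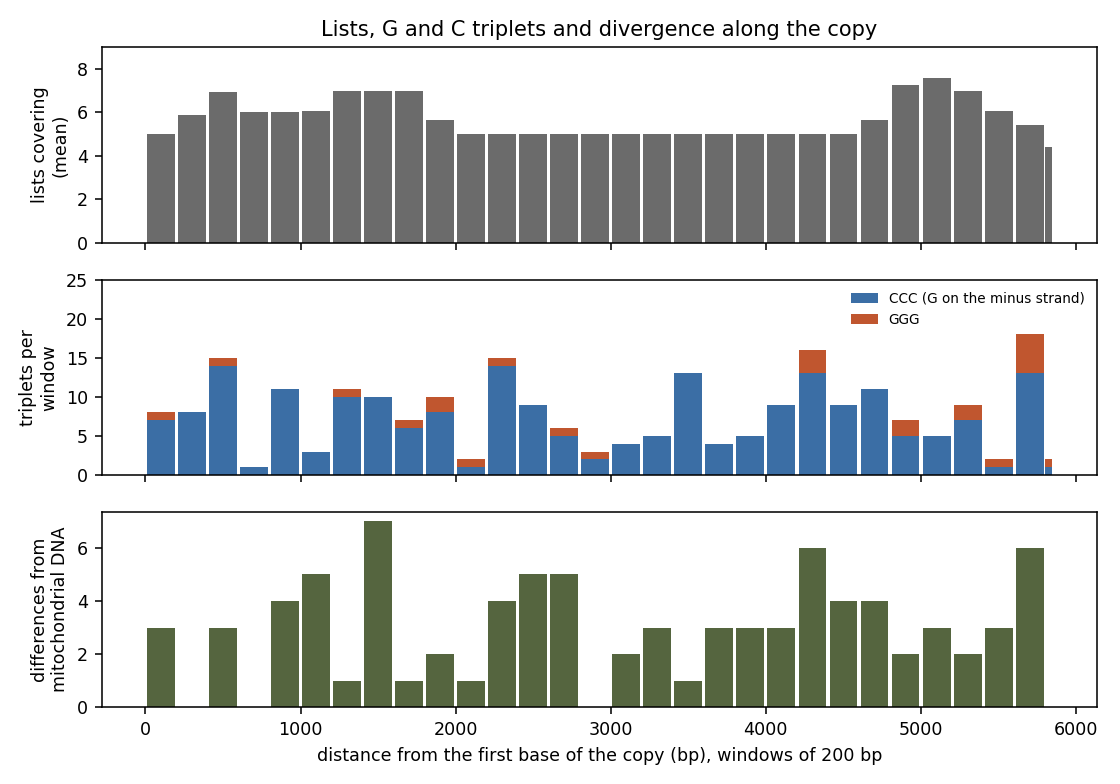
Mean number of lists covering each 200 bp window of the insert (top), GGG and CCC triplets in the window on the plus strand (middle) and differences from mitochondrial DNA (bottom), by distance in bp from the first base of the insert; the last window is shorter. Coverage is highest near the right end, in MTATP6P1, where up to 8 lists overlap, and CCC outnumbers GGG along most of the insert.

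Other nuclear copies were looked for by aligning the mitochondrial chromosome to chromosomes 1 to 22 and X, which gave 307 further copies of at least 300 bp with identities of 63.5% to 96.2%. A peak in at least 1 list overlapped 12 of them, or 3.91% (95% Clopper-Pearson interval 2.04% to 6.73%). Some copies are neighbouring pieces under the same peak, so they are not independent and the interval may be too narrow. The share of other genome stretches of like length that overlap a listed peak was not computed. The 3.91% is therefore not read as high or low. By list, 6 copies held a peak in CTnuc, 8 in KDnuc, 6 in CTut, 4 in KDut, 4 in CTtr, 2 in KDtr, 1 in G4 DNA-IPdenat, and 0 in G4-ChIP and in G4 DNA-IPnat (0 of 307, upper bound 1.19%). None of the folds there passed 6.16, against 5.53 to 46.0 at the insert. The copies with peaks in the most lists were chr22:12135940-12137281 (74.7% identity) and chr22:12137301-12138247 (74.5%), which shared their peaks in all 6 AbC lists, with folds of 4.08 to 6.16. They were followed by chr21:8846691-8847205 (83.8%, 5 lists), chr21:8845287-8846624 (74.3%, 4 lists) and chr4:49246020-49246683 (79.0%, 3 lists).

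Among the 11 copies with an identity of at least 90%, 0 held a peak in any list (upper bound 28.5%). They include chr17:53105733-53106385 with 96.2% identity, chr3:96617188-96618510 with 95.4%, and chr5:134923309-134928527, a copy of 5219 bp with 94.1% identity to bases 10269 to 15487 of the mitochondrial chromosome. The last is nearly as long as the insert and derives from a part of mitochondrial DNA that the insert lacks. The 5 longest copies, chr4:155451635-155466470, chr7:57185765-57198470, chr2:130271810-130283331, chr17:22522035-22532515 and chr5:100045938-100055045, had 9108 to 14836 bp and identities of 74.3% to 88.4%, and none held a peak. For every base of mitochondrial DNA between 3911 and 9755 the insert was the nuclear copy whose alignment had the highest identity. For the other 10724 bases the best nuclear match reached at most 95.4%. How much of the signal at the insert came from mitochondrial DNA was not tested.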

How the data were processed

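The deposited files were 9 lists of broad peaks in hg38 coordinates. By the methods, reads had been aligned by the authors with minimap2 (bowtie2 is named elsewhere in the study for the reads of CTnuc and KDnuc) to an hg38 index that lacked chromosome Y, mitochondrial DNA and unannotated sequences, and those with a unique position went into MACS2 together with the matching input. The MACS2 bandwidth was 3000, with no local background and a broad cutoff of 0.01, in the AbC lists and in G4 DNA-IPdenat, whereas G4-ChIP and G4 DNA-IPnat were called with 300. Versions of these tools are not given in the sources used here. For each peak the authors deposited a score, the fold enrichment (a ratio), and the -log10 of the p-value and of the q-value.

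The members and the lists of genes were chosen with earlier results of these data known. Peaks were assigned to the insert by an overlap of at least 1 bp, and coordinates are given 1-based. The level was the highest fold among the overlapping peaks, and ranks count the peaks with a higher value. Nuclear copies were found with blastn 2.17.0 (e-value of at most 1e-10, at least 300 bp in the genome, overlapping alignments merged), and genes come from GENCODE version 44. Named copies were the 5 longest, the 5 with peaks in the most lists and, chosen after the data were seen, 3 of those with at least 90% identity. Python 3.11.15 with pandas 2.3.3, pysam 0.24.0 and scipy 1.17.1 was used, and the functions were checked on simulated intervals and sequences. Intervals on shares of copies cover counting error only and treat the copies as independent, although some are neighbouring pieces under the same peak. The 7 inputs have no peak list and were not analysed here. Alternatives were the mean fold weighted by shared bases, the -log10 q, a minimum -log10 q of 4, coverage of at least 50%, copies of at least 1000 bp, other loop and run lengths, and leaving out each pair.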

Additional observations from a re-analysis of the deposited data

How the results depend on the processing

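CT and KD were paired by handling, and the paired log2 ratios were described without a test, since this contrast was used in choosing the insert. With the mean fold weighted by shared bases, the level was 29.6 in KDnuc, which moved by more than the spread between the KD lists. It was 6.51 in G4 DNA-IPdenat, a single list with no such spread, where any change was counted as a move. No other list moved by more than the spread between its group's lists. Ordering the lists by -log10 q instead of fold kept 24 of 28 pairs of lists in order. The mean log2 ratio of KD to CT was 1.17 with the weighted fold, and 1.17 after the median of the shared regions was subtracted. When 1 pair was left out it ran from 0.85 to 1.46. Its sign could not change there, since the log2 ratio was above 0 in each pair. The difference in -log10 q was positive in 3 of 3 pairs. With coverage of at least 50%, G4 DNA-IPdenat covered 2 pseudogenes in place of 4, CTnuc 3 in place of 4 and KDnuc 2 in place of 3. Among the other nuclear copies, a length of at least 1000 bp left 0 with a peak in G4 DNA-IPdenat, 2 in CTnuc, 4 in KDnuc, 2 in CTut, 2 in KDut, 2 in CTtr and 1 in KDtr. Coverage of at least 50% of the copy left 4 in CTnuc, 5 in KDnuc, 5 in CTut, 2 in KDut, 2 in CTtr and 0 in KDtr. A -log10 q of at least 4 left 0 in G4 DNA-IPdenat, 3 in KDnuc, 2 in KDut and 2 in CTtr. The G4 signature had 5 matches with loops of up to 12 bases and 33 with runs of at least 2 guanines. In all, 57 of 77 alternative values stayed with the value reported and 0 reversed. This count includes values that could not change. Examples are the weighted fold where the insert had 1 peak, and its coverage at a -log10 q of at least 4. A change within the spread of a group's lists was also counted as staying, as in CTnuc, where the weighted fold was 15.1 and the highest 22.3. So was a change in a number of pseudogenes or copies by a factor of at most 1.5.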
